A study of Mus musculus with 20 samples.

Results

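The colon of AOM/DSS mice given Pien Tze Huang (PZH) was compared with the colon of AOM/DSS mice given water, in 10 of the 20 mice of the study. The 5 AOM/DSS mice (numbers 23, 30, 33, 44 and 52) received 1 intraperitoneal dose of 12.5 mg/kg azoxymethane (AOM), then 4 cycles of 2% dextran sulfate sodium (DSS) in the drinking water for 5 days each, with water by gavage throughout the 91 days. The 5 PZH + AOM/DSS mice (numbers 2, 13, 15, 35 and 36) received the same AOM and DSS together with 250 mg/kg/d PZH by gavage. Both groups were male C57BL/6 mice, 1 RNA library was made per mouse, and mice were the replicates throughout. The 5 Control mice (water only) and the 5 PZH mice (PZH without AOM/DSS) served as background levels. AOM is a DNA-alkylating carcinogen and DSS a polymer that injures the colon lining, and in combination they give inflammation followed by epithelial tumors. PZH is a traditional Chinese formula made from musk, ox gallstone, snake gall and Panax notoginseng. RNA came from colon tissue, a mixture of cell types, so fewer cells of a type and less RNA per cell cannot be told apart.

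Tumors of this model usually carry an active Wnt pathway. When Wnt ligands bind Frizzled receptors, β-catenin escapes its destruction complex, enters the nucleus and switches on TCF target genes, many of which (Axin2, Nkd1, Notum, Rnf43) damp the pathway in turn. Injury to the colon also brings neutrophils, the proteases that cut matrix, and a regenerating epithelium that loses the transporters of mature colonocytes. The expression values were FPKM, reads per length of transcript and per depth, summed per gene, and differences were taken on the log2(FPKM + 1) scale, which understates changes of low genes. Depth, read from the smallest step of the values, was 16.9 to 19.2 M fragments in AOM/DSS mice and 15.5 to 17.5 M in PZH + AOM/DSS mice. Genes at 1 FPKM or more numbered 13655 to 14271 in AOM/DSS mice and 13641 to 14106 in PZH + AOM/DSS mice (two-sided exact permutation test, p = 0.222). The labels call the tissue colon but describe dissection of the abdominal aorta in the extraction text. Colon markers (13 genes, among them Cdx2, Vil1, Krt20 and Lgals4) averaged 6.24 to 7.74 on the log2(FPKM + 1) scale in AOM/DSS mice, 6.78 to 7.69 in PZH + AOM/DSS mice and 6.23 to 7.48 in Control mice, so the libraries of these groups held colon epithelium transcripts.

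Relative to AOM/DSS mice without PZH, the mice given PZH had mostly lower transcripts of Wnt feedback genes, Paneth-type defensins, neutrophil genes and matrix proteases, and a smaller number of higher ones, including transporters of mature colonocytes. Of 15888 genes tested with limma, 382 (2.4%) were called, meaning that they differed more than 2-fold with P under 0.05 before adjustment. Of these, 320 (2.01%) were lower and 62 (0.39%) higher in PZH + AOM/DSS mice, against 557 and 138 with a pseudocount of 0.1 and 605 and 154 with voom. An unadjusted P under 0.05 alone was reached by 1305 genes that were lower (8.21%) and 557 that were higher (3.51%). After Benjamini-Hochberg adjustment over all genes, 1 gene (0.00629%), Eef1a1, remained at an adjusted P under 0.05. Without the filter on low values no gene that was higher did so, and with all 20 mice in 1 model 85 lower and 4 higher genes did. The calls named here as higher or lower therefore rest on unadjusted P, while each P printed beside a gene is adjusted over all genes. Every PZH + AOM/DSS mouse lay below every AOM/DSS mouse in 107 genes (0.673%) and above in 64 (0.403%). With mouse 35, described next, set aside, 1303 genes (8.2%) lay below without overlap and 435 (2.74%) above.

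Mouse 35 stood apart from the other 4 treated mice. Over the 320 genes called lower, mice 2, 13, 15 and 36 lay below all 5 AOM/DSS mice in 298, 302, 284 and 293 genes, whereas mouse 35 did so in 23, lay within the AOM/DSS range in 272 and above it in 25. The median log2 difference from the AOM/DSS mean over these genes was −1.93, −2.06, −1.39 and −1.67 in mice 2, 13, 15 and 36, and 0.15 in mouse 35. These genes were called from the same mice. Where mouse 35 is high, a gene is called lower mainly if the other 4 are low, so their counts are partly set by the call. Over the 62 genes called higher, mouse 35 was above all AOM/DSS mice in 23, against 39 to 42 in the other 4. Its median correlation across genes was highest with AOM/DSS mice (Pearson's r = 0.976, against 0.96 with the other treated mice, across genes, which are not independent). Its depth (17.5 M fragments) and number of genes detected (14106) were within the range of the AOM/DSS mice.

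**Figure D1:**
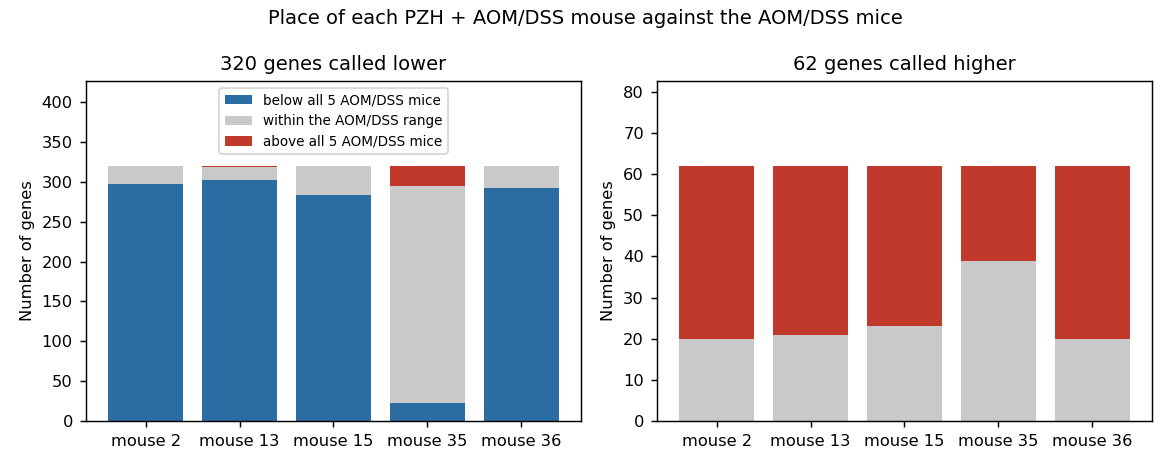
Each bar is 1 PZH + AOM/DSS mouse and its height the number of genes called lower (left, 320) or higher (right, 62), split by where that mouse stood against the lowest and highest AOM/DSS mouse. Mouse 35 was within the AOM/DSS range in 272 of the 320 genes called lower, while the other 4 mice were below it in 284 to 302. The genes were called from these same mice, so the counts of the other 4 are partly set by the call.

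The spread between mice followed the same split. The median SD of log2(FPKM + 1) over all genes was 0.238 in AOM/DSS mice and 0.293 in PZH + AOM/DSS mice, and 63.3% of genes had the larger SD in the treated group. Over the 320 genes called lower the median SD was 0.516 and 0.962, and 0.547 in the treated group without mouse 35. With mouse 35 left out, 509 genes (3.25% of 15639 tested) were called lower and 105 (0.671%) higher, and an adjusted P under 0.05 was reached by 689 lower (4.41%) and 119 higher genes (0.761%), 808 in all (5.17%). Leaving out any other mouse gave 0 to 2 lower and 1 higher gene at an adjusted P under 0.05. Mouse 35 was singled out by its measured values, so the P values without it describe how far the result depends on 1 mouse and do not replace those with all 10. Nothing in the labels sets this mouse apart, and an exchanged label and a treated mouse that stayed at AOM/DSS levels cannot be told apart from these values. Values given without further mention include all 10 mice, and those without mouse 35 are named as such.

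**Figure D2:**
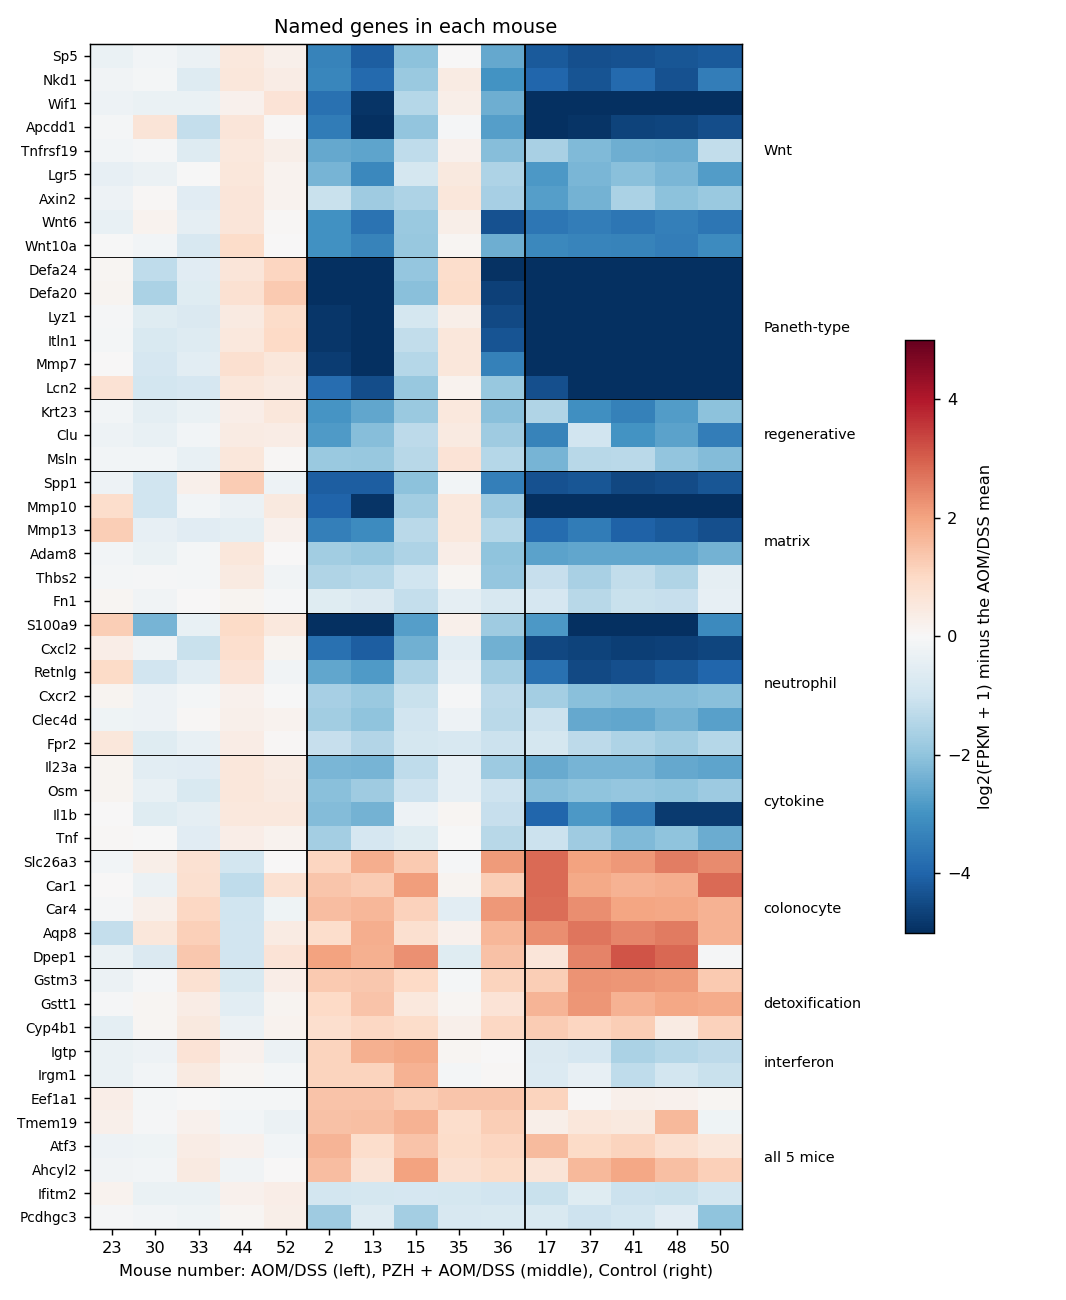
Colors give log2(FPKM + 1) minus the mean of the 5 AOM/DSS mice for 50 genes (rows, grouped by role) in the AOM/DSS, PZH + AOM/DSS and Control mice (columns), with colors saturated at 5 either way. The column of PZH + AOM/DSS mouse 35 resembles the AOM/DSS columns in the Wnt, Paneth-type, regenerative and most matrix rows, and the other treated columns in the 6 rows at the bottom. Those 6 genes were taken from the set in which all 5 treated mice lay apart, so that resemblance is set by the choice.

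Wnt feedback and target genes were lower in 4 of the 5 treated mice. Of 23 members tested, 11 were called lower (47.8%, against 2.01% of all genes) and 0 higher, and the median log2 difference of the list was −1.005 against −0.04 for all genes. Sp5 (chromosome 2, 70474923 to 70477729), a transcription factor induced by β-catenin, had 16.3, 18.5, 16.8, 30.3 and 24.6 FPKM in AOM/DSS mice 23, 30, 33, 44 and 52. In PZH + AOM/DSS mice 2, 13, 15, 35 and 36 it had 1.13, 0.246, 4.22, 21.2 and 2.71 FPKM. The 4 other treated mice lay below all AOM/DSS mice, mouse 35 lay within their range, and the Control mice had 0.0261 to 0.175 FPKM. The log2 difference of Sp5 was −2.41 (standard error 0.63, adjusted P = 0.356), and −3.02 without mouse 35 (adjusted P = 0.00654).

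Nkd1, which binds Dishevelled and restrains the pathway, had 71.9, 74.7, 51, 119.7 and 104 FPKM in the AOM/DSS mice. Its values in the treated mice, in the same order as before, were 7.42, 4.46, 21.5, 108 and 9.28 FPKM, against 2.95 to 6.43 FPKM in Control mice. Mice 2, 13 and 36 were thus at or near the Control range, mouse 15 was intermediate and mouse 35 was at the level of the AOM/DSS mice (log2 difference −2.32 ± 0.69 SE, adjusted P = 0.356). Wif1, a secreted protein that binds Wnt ligands, had 84.5, 78, 79.5, 116 and 160.4 FPKM with AOM/DSS and 6.48, 2.37, 36.3, 123 and 17.8 FPKM with PZH + AOM/DSS, while Control mice had 0.394 to 0.82 FPKM. Treated mouse 35 again lay within the AOM/DSS range and the other 4 far below it.

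Axin2, the scaffold of the destruction complex and a general Wnt target, fell less. It had 30.7, 38.4, 24.3, 56.1 and 41.8 FPKM in AOM/DSS mice and 16.3, 10.1, 11.9, 55.7 and 11.1 FPKM in treated mice (log2 difference −1.10 ± 0.42 SE, adjusted P = 0.377). Lgr5, the R-spondin receptor of crypt base stem cells, had 11.1, 12.1, 14.7, 22.4 and 16.8 FPKM and 2.19, 0.726, 7.77, 21.6 and 4.5 FPKM (log2 difference −1.49, adjusted P = 0.379). In both genes 4 treated mice lay below all AOM/DSS mice. The other members called lower were Tnfrsf19 (−1.68), Apcdd1 (−2.78), Dkk2 (−1.94), Notum (−2.01), Sox4 (−1.31) and Rnf43 (−1.15), all log2 differences. Without mouse 35, 12 members of this list were lower at an adjusted P under 0.05 (against 4.41% of all genes), and the median log2 difference was −1.35.

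Among 34 Wnt ligands, receptors and core components, 3 were called lower (8.82%, against 2.01% of all genes, and 5 without mouse 35) and 0 higher, and the median log2 difference was −0.12. The ligand Wnt6 had 14.6, 21.7, 13.9, 30.1 and 19.8 FPKM in AOM/DSS mice, 1.49, 0.585, 4.66, 23.7 and 0 FPKM in treated mice and 0.643 to 0.898 FPKM in Control mice (log2 difference −2.52 ± 0.73 SE, adjusted P = 0.356). The ligand Wnt10a had 9.63, 8.84, 5.29, 19.8 and 9.98 and 0.34, 0.0697, 1.94, 10.6 and 0.998 FPKM (−2.12, adjusted P = 0.356), and the receptor Fzd10 was the remaining gene called lower (−1.06). In Wnt6 and Wnt10a, treated mice other than 35 lay below all AOM/DSS mice. Tcf7l2, the main TCF factor of the colon epithelium, ran the other way with 1.81, 2.87, 2.11, 2.18 and 2.79 FPKM in AOM/DSS mice and 4.83, 4.5, 4.23, 2.03 and 5.67 FPKM in treated mice (log2 difference 0.61, adjusted P = 0.356), under the fold criterion. Ctnnb1, which encodes β-catenin, had 320.5, 288, 257, 373 and 355 FPKM in AOM/DSS mice and 213, 218, 301, 334 and 262 FPKM in treated mice, and the ranges overlapped (log2 difference −0.27 ± 0.16 SE, adjusted P = 0.52). Myc differed by −0.42 (adjusted P = 0.404). Ccnd1, which encodes cyclin D1, differed by 0.38 (adjusted P = 0.775), with AOM/DSS mouse 44 at 8.52 FPKM and the other AOM/DSS mice at 45.8 to 62.6. Without mouse 44 the Ccnd1 log2 difference was −0.12.

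The promoters of Sp5 and Nkd1 are shown because they had the smallest P among feedback genes with a single promoter in the RefSeq table. Each runs from 250 bases before to 50 bases after the annotated start on GRCm38.p6, Sp5 at chr2:70474673-70474972 and Nkd1 at chr8:88527383-88527682, both on the plus strand. Capitals mark the core of the TCF/LEF motif, searched as CTTTGAT or CTTTGAA on both strands.
Sp5: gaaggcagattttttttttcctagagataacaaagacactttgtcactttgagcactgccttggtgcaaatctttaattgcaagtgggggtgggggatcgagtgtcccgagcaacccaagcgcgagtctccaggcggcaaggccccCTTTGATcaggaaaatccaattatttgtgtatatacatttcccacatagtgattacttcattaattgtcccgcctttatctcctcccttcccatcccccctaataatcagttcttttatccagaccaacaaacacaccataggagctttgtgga
Nkd1: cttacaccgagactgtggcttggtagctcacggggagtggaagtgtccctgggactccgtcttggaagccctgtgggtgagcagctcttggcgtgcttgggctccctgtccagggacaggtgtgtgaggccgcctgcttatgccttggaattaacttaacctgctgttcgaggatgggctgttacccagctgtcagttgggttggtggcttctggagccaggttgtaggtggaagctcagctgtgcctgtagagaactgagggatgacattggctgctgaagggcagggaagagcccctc
The Sp5 promoter held 1 such core and the Nkd1 promoter none. Among the 27025 genes with a RefSeq promoter, 9.88% held at least 1, as did 2 of the 16 feedback genes with a promoter there (Sp5 and Tnfrsf19) and 33 of 207 genes called lower (15.9%). A match is a run of letters in a short window and no evidence of binding.

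**Figure D3:**
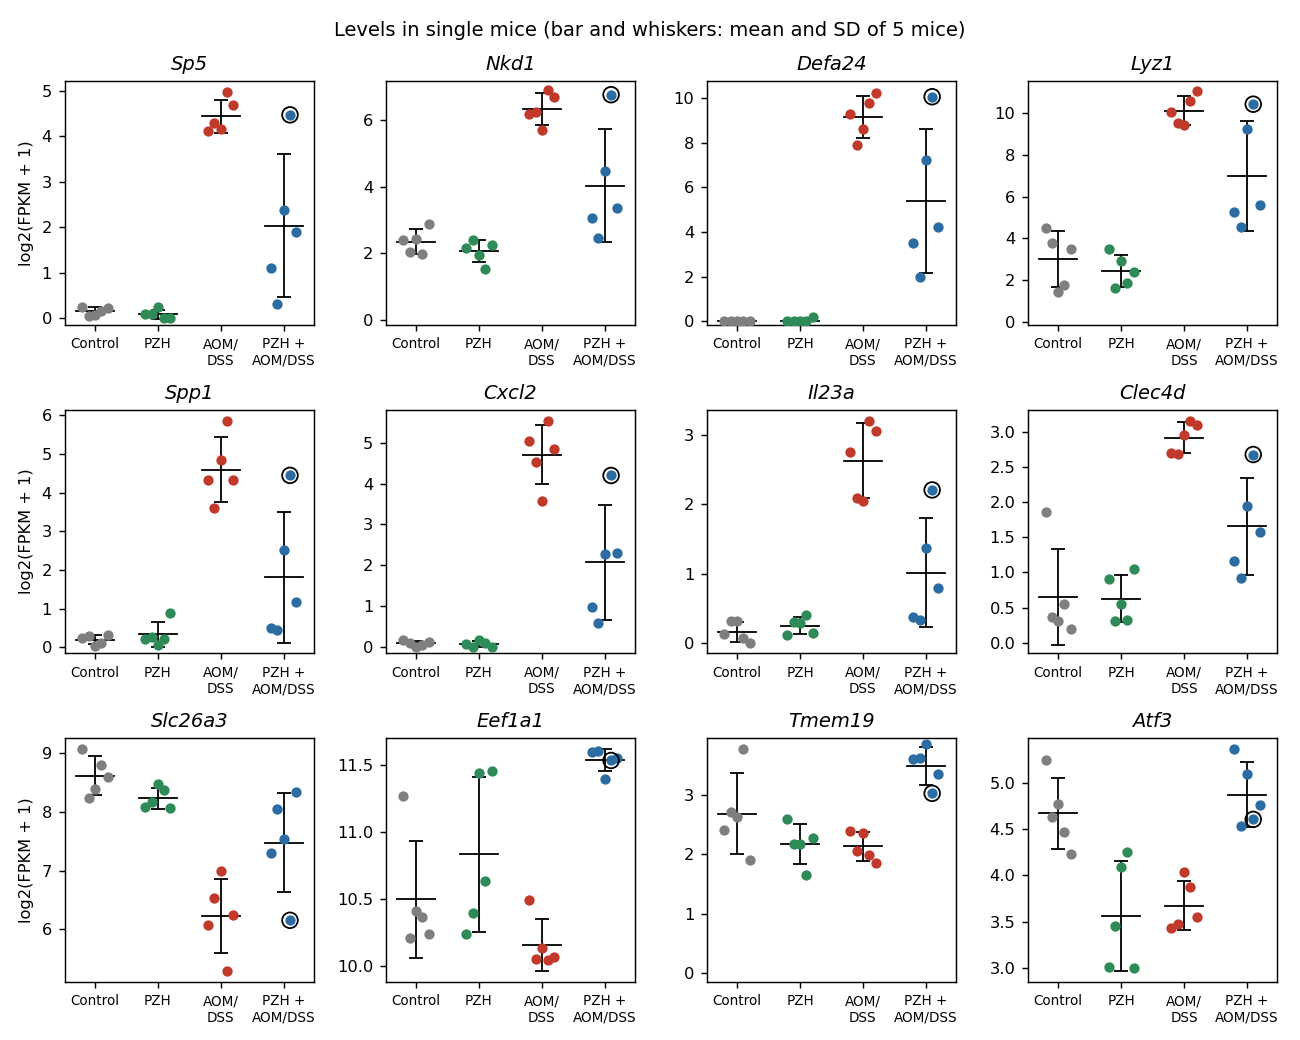
Points are single mice and bars with whiskers the mean and SD of 5 mice on the log2(FPKM + 1) scale, for 12 genes in the 4 groups. The ringed point, PZH + AOM/DSS mouse 35, lies among the AOM/DSS mice for Sp5, Nkd1, Defa24, Lyz1 and Slc26a3, and with the other treated mice for Eef1a1 and Atf3. Eef1a1 and Atf3 are from the set in which all 5 treated mice lay apart, so the place of mouse 35 there is set by the choice.

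Paneth-type and antimicrobial genes had the lowest median of all lists examined. The colon normally lacks Paneth cells, the crypt cells of the small intestine that secrete α-defensins and lysozyme. Of 23 members tested, 13 were called lower (56.5%, against 2.01% of all genes) and 1 higher, with a median log2 difference of −2.36. Defa24 (chromosome 8, 21734494 to 21735471), an α-defensin, had 622, 239, 391, 886 and 1218 FPKM in AOM/DSS mice and 10.4, 3.01, 149, 1069.6 and 17.6 FPKM in treated mice, and was listed at 0 in all 5 Control mice. Mice 2, 13 and 36 were at 3.01 to 17.6 FPKM, mouse 15 at 149 and mouse 35 above 4 of the 5 AOM/DSS mice. The log2 difference was −3.77 ± 1.3 SE (adjusted P = 0.358), and −4.93 without mouse 35 (adjusted P = 0.018). All 19 Defa genes tested were called lower, with log2 differences of −3.88 (Defa20) to −1.50. They are neighbouring paralogs of similar sequence, so fragments may be divided among them and they do not count as 19 separate results.

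Of the 14 members tested outside the defensin family, 4 were called lower and 1 higher (2.01% and 0.39% of all genes). Lyz1, the lysozyme of Paneth cells, had 1059, 732, 681, 1509.9 and 2128 FPKM in AOM/DSS mice and 37.1, 22.1, 599, 1376 and 47.5 FPKM in treated mice (log2 difference −3.11, adjusted P = 0.356). Itln1, an intelectin that binds microbial sugars, had 176, 109, 119, 266 and 368 and 5.5, 3.61, 79.2, 273 and 8.29 FPKM (−3.04, adjusted P = 0.356), and Mmp7, the protease that activates pro-defensins, 342, 191, 234, 598 and 498 and 11.7, 5.64, 127, 504 and 31.6 FPKM (−2.93, adjusted P = 0.358). In these genes treated mice 2, 13 and 36 were below all AOM/DSS mice by a wide margin, mouse 15 was below them by less and mouse 35 was inside their range. Lcn2, a siderophore-binding protein released by epithelium and neutrophils, had 165, 52.8, 56, 148 and 137 FPKM and 6.29, 3.73, 26, 114 and 26.5 FPKM (−2.36, adjusted P = 0.356). The member called higher was Mptx1, a pentraxin of the mucosa, with 34.9, 104, 308, 25.2 and 164 FPKM in AOM/DSS mice and 360.1, 507, 335, 257 and 311 FPKM in treated mice (log2 difference 1.99 ± 0.60 SE, adjusted P = 0.356). AOM/DSS mouse 33 reached into the range of the treated mice, mouse 35 was the lowest of its group but above 4 AOM/DSS mice, and Control mice had 229 to 2047 FPKM.

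Other genes were low in the same mice. Rdh16f1, of the retinol dehydrogenase family, was listed at 0 in treated mice 2, 13, 15 and 36 and had 24.8 FPKM in mouse 35, against 20.1, 14.6, 16.5, 44.2 and 31.8 FPKM in AOM/DSS mice. It was also listed at 0 in all Control mice. A further group, singled out after its values were seen, was that of lipase-related genes best known from the pancreas. Pnliprp1 had 89.7, 77.2, 49, 130.3 and 186 FPKM in AOM/DSS mice and 3.47, 0.913, 33.1, 103 and 8.41 FPKM in treated mice (log2 difference −2.98, adjusted P = 0.356). Pnliprp2 differed by −2.65 and Clps, the colipase, by −1.32.

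Regenerative epithelium genes, which mark repair after injury, were lower in 6 of 19 members (31.6%, against 2.01% of all genes) and called higher in 0. Krt23, a keratin, had 49.5, 38.8, 43.1, 69 and 81.1 FPKM in AOM/DSS mice and 6.22, 8.18, 14.1, 77.7 and 12 FPKM in treated mice (log2 difference −1.79 ± 0.56 SE, adjusted P = 0.356), and Clu, the secreted chaperone clusterin, 153, 139.9, 166, 242 and 236 and 25, 40.9, 73.2, 247 and 52.1 FPKM (−1.52, adjusted P = 0.356). All treated mice except 35 were below all AOM/DSS mice in these genes. The median of the list was −0.33, with 14 of 19 members negative and 1 member higher at an unadjusted P under 0.05. Without mouse 35, 9 members were lower at an adjusted P under 0.05 (against 4.41% of all genes). Leaving out AOM/DSS mouse 44 or treated mouse 2 left 3 members called lower. The squamous keratin Krt15 was also lower (−1.46, adjusted P = 0.356), and the 12 squamous markers tested averaged 2.07 to 3 on the log2 scale in AOM/DSS mice and 1.68 to 3.18 in treated mice, highest in mouse 35. Called lower were 1 of them with all mice (8.33%, against 2.01% of all genes) and 4 without mouse 35 (against 3.25% of all genes). Control mice 17 and 50 had 5.58 and 5.22 and the other 3 Control mice 1.47 to 1.6, so the Control level of such genes was not uniform.

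Proteases and matrix were lower in part. Of 23 metalloproteinases and inhibitors tested, 6 were called lower (26.1%, against 2.01% of all genes), 0 higher, and 21 had a negative log2 difference, with a median of −0.66. Mmp10, stromelysin 2, had 106, 28.1, 51.8, 46.5 and 79.6 FPKM in AOM/DSS mice and 2.54, 0.941, 16.4, 81.9 and 15.4 FPKM in treated mice (log2 difference −2.38, adjusted P = 0.367). Mmp13, a collagenase, had 86.2, 26.8, 24, 25.7 and 41.4 and 2.41, 3.18, 13.4, 51.8 and 12.9 FPKM (−1.77, adjusted P = 0.38), with AOM/DSS mouse 23 far above the rest of its group. Adam8, a sheddase of leukocytes, had 10.3, 8.96, 10.5, 17.3 and 11.5 and 2.72, 2.43, 3.23, 14.6 and 2.09 FPKM (−1.37, adjusted P = 0.356). In each of these genes mouse 35 alone among treated mice lay within the AOM/DSS range. Mmp14, the membrane-type protease of stroma, differed by −0.82 (adjusted P = 0.356), under the fold criterion, and Mmp9 and Mmp12 were called lower at −1.50 and −1.40. Without treated mouse 2, 3 members of the list were called lower. Mmp7 stood in the Paneth-type list too and Mmp9 among the neutrophil markers, so these lists are not separate results.

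Of 32 collagen and matrix genes, 3 were called lower (9.38%, against 2.01% of all genes) and 0 higher. At an unadjusted P under 0.05 alone, 11 were lower and 2 higher (8.21% and 3.51% of all genes). Spp1, osteopontin, had 19.2, 11.1, 27.8, 57 and 19.1 FPKM in AOM/DSS mice, 0.405, 0.371, 4.75, 20.8 and 1.25 FPKM in treated mice and 0.0341 to 0.249 FPKM in Control mice (log2 difference −2.78 ± 0.74 SE, adjusted P = 0.356). Fn1, fibronectin, differed less but without overlap, with 68.8, 58.1, 65.9, 71.1 and 61.7 FPKM in AOM/DSS mice and 42, 38.8, 27.9, 47.3 and 36.5 FPKM in treated mice (log2 difference −0.76 ± 0.14 SE, adjusted P = 0.35). Most of the Fn1 value sat in 1 annotated retained-intron transcript, Fn1-202, with a mean of 48.9 FPKM in AOM/DSS mice and 27.7 in treated mice. The basement membrane collagen Col4a1 differed by −0.76 (adjusted P = 0.356) and thrombospondin 2 (Thbs2) by −1.15 (adjusted P = 0.356). The 2 members higher at P under 0.05 were Postn, periostin (0.62, adjusted P = 0.363), and Lum, lumican (0.69, adjusted P = 0.371), both made by fibroblasts.

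Neutrophil genes and the chemokines that attract these cells were lower. Of 15 neutrophil markers tested, 10 were called lower (66.7%, against 2.01% of all genes) and 0 higher, with a median of −1.20, and 3 were below in every treated mouse (0.673% of all genes). Without treated mouse 13, 6 were called lower. The mean log2(FPKM + 1) of the list was 2.87 to 3.81 in AOM/DSS mice, 1.36, 1.2, 2.26, 3.32 and 2.46 in treated mice 2, 13, 15, 35 and 36, and 0.605 to 1.92 in Control mice. The calprotectin subunit S100a9 was listed at 0 in treated mice 2 and 13 and had 16.4, 138 and 33 FPKM in mice 15, 35 and 36, against 276, 22.5, 90.2, 229.5 and 167 FPKM in AOM/DSS mice (adjusted P = 0.371). Its partner S100a8 had 214, 60.5, 62.4, 216 and 119 and 12.1, 2.61, 29.4, 109 and 47.8 FPKM (log2 difference −2.29, adjusted P = 0.36). In S100a9 the lowest AOM/DSS mouse lay below treated mice 35 and 36, so the groups overlapped.

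The receptor Cxcr2, through which neutrophils are drawn into tissue, had 3.93, 2.78, 3.19, 4.24 and 3.46 FPKM in AOM/DSS mice and 0.413, 0.245, 1.09, 3.27 and 0.823 FPKM in treated mice (log2 difference −1.20 ± 0.29 SE, adjusted P = 0.356). The lectin receptor Clec4d had 5.5, 5.39, 6.77, 7.9 and 7.51 and 1.23, 0.892, 2.84, 5.38 and 1.99 FPKM (−1.26, adjusted P = 0.356) and the formyl peptide receptor Fpr2 4.79, 1.54, 2.01, 3.96 and 3.05 and 0.726, 0.392, 1.09, 1.26 and 0.862 FPKM (−1.08, adjusted P = 0.356). Retnlg, a secreted resistin-like protein of neutrophils, differed by −1.81 (adjusted P = 0.356) and the cystatin-related Stfa2l1 by −1.13 (adjusted P = 0.356). Clec4d, Fpr2 and Stfa2l1 were the members in which every treated mouse, mouse 35 included, was below every AOM/DSS mouse, by little in Clec4d, where mouse 35 had 5.38 FPKM and AOM/DSS mouse 30 had 5.39. Of 8 neutrophil chemokines and receptors, 5 were called lower (62.5%, against 2.01% of all genes), with a median of −1.40. Cxcl2 had 32, 22.1, 11, 45.4 and 27.8 FPKM in AOM/DSS mice, 0.959, 0.516, 3.88, 17.4 and 3.94 FPKM in treated mice and at most 0.126 FPKM in Control mice (log2 difference −2.64 ± 0.62 SE, adjusted P = 0.356). Cxcl1, Cxcl3 and Cxcl5 were called lower as well (−1.59, −1.65 and −1.99). Among 31 other chemokines 1 was called lower (3.23%, against 2.01% of all genes), Cxcl14 (−1.30, adjusted P = 0.356).

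Cytokines were called lower in 5 of 32 genes of that list (15.6%, against 2.01% of all genes) and higher in 0. Without mouse 35, 10 were called lower. Il23a, the p19 subunit of IL-23, had 5.75, 3.26, 3.14, 8.24 and 7.32 FPKM in AOM/DSS mice, 0.289, 0.253, 1.58, 3.62 and 0.737 FPKM in treated mice and 0 to 0.246 FPKM in Control mice (log2 difference −1.62 ± 0.38 SE, adjusted P = 0.356). Osm, oncostatin M, had 3.88, 2.42, 1.65, 5.49 and 5.03 and 0.0568, 0.302, 1.15, 2.32 and 1.14 FPKM (−1.27, adjusted P = 0.356), and Il1a and Il33 were called lower too (−1.19 and −1.08). For these low genes the pseudocount of 1 shrinks the difference. Il1b had 50.1, 32.5, 36.3, 73.4 and 71.7 FPKM in AOM/DSS mice and 10.5, 8.89, 42.1, 53.7 and 21.8 FPKM in treated mice (log2 difference −1.17 ± 0.48 SE, adjusted P = 0.398), with treated mice 15 and 35 inside the AOM/DSS range. Tnf had 8.76, 8.28, 5.34, 10.9 and 9.5 and 1.89, 4.26, 5.21, 8.35 and 2.56 FPKM (−0.90, adjusted P = 0.356). Il6 had 5.11, 0.297, 0.502, 0.73 and 0.749 and 0.0276, 0.0245, 0.685, 0.317 and 0.36 FPKM, a difference of −0.70 ± 0.38 SE that did not pass the test (adjusted P = 0.488). AOM/DSS mouse 23 was alone above 1 FPKM in Il6.

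Fewer markers of other immune cells were called. Of 17 macrophage and monocyte markers 1 was called lower (5.88%, against 2.01% of all genes). This was Arg1, the arginase of activated myeloid cells, with 30.4, 46.3, 19.1, 39.4 and 50.1 FPKM in AOM/DSS mice and 0.738, 0.887, 6.99, 41.4 and 5.33 FPKM in treated mice (log2 difference −2.62, adjusted P = 0.356). Control mice had 0.119 to 26.7 FPKM, with a median of 0.289. The macrophage marker Adgre1 had 6.56 to 8.59 FPKM in AOM/DSS mice and 6.93 to 9.02 FPKM in treated mice (log2 difference 0.03 ± 0.11 SE, adjusted P = 0.949), and the Adgre1 log2 difference was −0.029 without AOM/DSS mouse 23 and −0.012 without treated mouse 13. By limma, no marker of T and NK cells (16 tested), B cells and follicles (13), plasma cells (15) or MHC class II (10) was called. An unadjusted P under 0.05 alone was reached by 2 of these markers, the T cell kinase Lck (−0.49) and the immunoglobulin constant gene Ighg3 (−0.97), both lower. Of 178 immunoglobulin V segments tested, 14 were called lower (7.87%, against 2.01% of all genes) and 0 higher, and segments of this kind depend on which plasma cell clones a mouse holds. Of 10 mast cell and eosinophil markers 1 was called lower (10%, against 2.01% of all genes). This was Prg2 (−1.26), with AOM/DSS mouse 52 as low as the treated mice.

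Hemoglobin genes were lower in part of the treated mice. The summed FPKM of the erythroid list was 69.05 to 226.5 in AOM/DSS mice and 21.69 to 135.6 in treated mice. Of 5 erythroid genes 3 hemoglobin genes were called lower (60%, against 2.01% of all genes). Hemoglobin genes are paralogs of similar sequence, so fragments may be divided among them and they do not count as 3 separate results. Hbb-bs had 94.8, 25.2, 76.8, 81.4 and 70.1 FPKM in AOM/DSS mice and 13.5, 16.7, 8.23, 47.1 and 47.3 FPKM in treated mice (log2 difference −1.54, adjusted P = 0.356). Mice 35 and 36 had the highest values of the treated group, and AOM/DSS mouse 30 lay below both. Neutrophils also circulate in blood, and the part of blood content in the neutrophil result was not tested.

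Genes that were higher in treated mice included transporters of mature colonocytes. Of 24 absorptive colonocyte markers, 4 were called higher (16.7%, against 0.39% of all genes) and 1 lower, and the median log2 difference was 0.65. Slc26a3, the chloride and bicarbonate exchanger of the surface epithelium, had 66.4, 91.8, 126, 38.4 and 74.9 FPKM in AOM/DSS mice, 158, 262, 184, 70.3 and 323 FPKM in treated mice and 299 to 536 FPKM in Control mice (log2 difference 1.25 ± 0.41 SE, adjusted P = 0.356). Every treated mouse except 35 was above all AOM/DSS mice. The carbonic anhydrases Car1 and Car4 differed by 1.23 and 1.19 (adjusted P = 0.36 and adjusted P = 0.398), and Car4 had 190.3, 233, 401, 98.3 and 171 FPKM against 584, 620.1, 435, 137 and 885 FPKM. The water channel Aqp8 differed by 1.07 (adjusted P = 0.425), and its ranges overlapped, with AOM/DSS mouse 33 at 195 FPKM and treated mice at 98.7 to 306. Without mouse 35, 3 members were higher at an adjusted P under 0.05 (against 0.761% of all genes). Leaving out AOM/DSS mouse 44 left 1 member called higher, and leaving out AOM/DSS mouse 23 or treated mouse 2, 13, 15 or 36 left 2.

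Of the 3 subunits tested of the epithelial sodium channel, which aldosterone regulates, 1 was called lower (against 2.01% of all genes). This was Scnn1b, which had 9.12, 4.47, 3.37, 6.84 and 1.87 FPKM in AOM/DSS mice and 0.99, 1.63, 0.574, 2.72 and 1.96 FPKM in treated mice (log2 difference −1.18 ± 0.35 SE, adjusted P = 0.356). AOM/DSS mouse 52 lay within the treated range. Scnn1g differed by −0.95 (adjusted P = 0.362), under the fold criterion. The intestinal transcription factor Cdx2 had 16.7, 10.3, 27.6, 8.84 and 22.3 and 38.7, 42.4, 53.1, 13.9 and 25.6 FPKM (0.96, adjusted P = 0.389), under the fold criterion. Dpep1, a membrane dipeptidase, had 11.2, 8.19, 38, 6.82 and 23.8 and 60.6, 52, 73.5, 8.94 and 41 FPKM (1.38, adjusted P = 0.407).

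Xenobiotic metabolism genes leaned upward, with a median log2 difference of 0.43 over 40 genes, 4 of them negative. The colon epithelium uses these enzymes to oxidize and conjugate foreign compounds. At an unadjusted P under 0.05 7 were higher and 2 lower (3.51% and 8.21% of all genes). Called higher was 1 (2.5%, against 0.39% of all genes), the cytochrome P450 gene Cyp2c65 (1.14, adjusted P = 0.372). Without mouse 35, 5 were called higher and 2 lower (0.671% and 3.25% of all genes). The glutathione transferase Gstm3 had 9.12, 10.9, 19.6, 6.27 and 14.5 FPKM in AOM/DSS mice and 29.6, 29.9, 23.6, 10.4 and 25.2 FPKM in treated mice (log2 difference 0.93, adjusted P = 0.362), and Gstt1 had 11.3, 13, 15.5, 8.07 and 13 and 24.8, 33.3, 17.8, 12.9 and 19.7 FPKM (0.75, adjusted P = 0.356). The treated mice stayed below the Control medians of 52.8 and 45.4 FPKM. Cyp4b1, another cytochrome P450 gene, had 0.179, 0.785, 1.34, 0.329 and 0.857 FPKM in AOM/DSS mice and 1.94, 2.38, 2.14, 0.944 and 2.35 FPKM in treated mice (0.81, adjusted P = 0.356). The 2 members lower at P under 0.05 were Cyp2b10 (−0.96) and Gsta4 (−0.76). Among 9 bile acid genes 1 was called lower (11.1%, against 2.01% of all genes). This was the export pump Abcc2, with 6.72, 11.1, 4.7, 16.9 and 16.8 FPKM in AOM/DSS mice and 1.9, 0.8, 2.68, 15.9 and 2.91 FPKM in treated mice (−1.41, adjusted P = 0.384). Of 34 lipid and ketone metabolism genes none was called by limma, 1 was higher at an unadjusted P under 0.05, and the median was 0.16.

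Some interferon response genes were higher in 3 of the treated mice. At an unadjusted P under 0.05, 6 of 30 were higher (3.51% of all genes) and 0 lower, and the median was 0.25. Called higher was 1 (3.33%, against 0.39% of all genes), or 3 without mouse 35 (0.671% of all genes). The interferon-γ-induced GTPase Igtp had 16.6, 17.7, 34.6, 25.2 and 17.2 FPKM in AOM/DSS mice, 47.6, 74.9, 82.5, 22.9 and 21.4 FPKM in treated mice and 6.56 to 12.5 FPKM in Control mice (log2 difference 0.98 ± 0.39 SE, adjusted P = 0.389). Irgm1, of the same GTPase family, had 27, 30.9, 47.4, 37.1 and 31.5 and 74.2, 75, 116, 31.7 and 35.6 FPKM (0.78, adjusted P = 0.404). Both differences were under the fold criterion. Mice 2, 13 and 15 were above all AOM/DSS mice in both genes, and mice 35 and 36 were within their range, a different split from that of the Wnt genes. Of 7 adipocyte markers tested, 2 were called higher (28.6%, against 0.39% of all genes). These were Cfd and Car3 (2.04 and 1.82), with peaks in mice 2 and 36. Cfd had 0, 1.26, 0.655, 0 and 0.309 FPKM in AOM/DSS mice and 29.4, 1, 1.17, 3.27 and 9.27 FPKM in treated mice. All 7 adipocyte markers tested had a positive log2 difference, with a median of 0.32, and the part of attached fat in the result was not tested.

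A small set of genes lay apart in all 5 treated mice, with 64 (0.403%) above and 107 (0.673%) below every AOM/DSS mouse. With 5 mice a side some genes separate fully by chance, and shares this small may be no more than that. They were not tested against chance, so the counts are not read as an excess. The activating transcription factor gene Atf3 (chromosome 1, 191170296 to 191218039), an early stress-response gene, had 9.77, 10.1, 15.4, 13.6 and 10.7 FPKM in AOM/DSS mice and 40.2, 22.2, 33.1, 23.3 and 26.1 FPKM in treated mice (log2 difference 1.20 ± 0.19 SE, adjusted P = 0.235). Mouse 35 was clear of the AOM/DSS mice, as it had to be in any gene of this set. Control mice had 17.8 to 37 FPKM, as high as the treated ones. In the PZH mice without AOM/DSS the main Atf3 transcript, Atf3-201, had 7.04, 9.97, 16, 18.1 and 7.01 FPKM, mostly below the Control mice. Tmem19 (chromosome 10, 115339674 to 115362501), a membrane protein gene, had 4.27, 3.18, 4.16, 2.97 and 2.61 and 11.2, 11.3, 13.5, 7.18 and 9.24 FPKM (1.36 ± 0.18 SE, adjusted P = 0.102). Ahcyl2, related to S-adenosylhomocysteine hydrolase, had 12.6, 12.8, 19.9, 12.4 and 14.5 and 43.2, 23, 61, 25.2 and 28.2 FPKM (1.19, adjusted P = 0.356). In these genes the lowest treated mouse was above the highest AOM/DSS mouse. Among assembled transcripts without a gene name, the one most opposed to Tmem19 over the 20 mice averaged 9.48 FPKM in AOM/DSS mice and 4.04 FPKM in treated mice. Tmem19 summed with it had 8.32 to 16.1 FPKM in AOM/DSS mice and 10.7 to 16.5 FPKM in treated mice, so the groups overlapped (Tmem19 log2 difference 0.18). Atf3 and Ahcyl2 summed in the same way did not overlap. The transcripts added there averaged at most 0.711 FPKM (Atf3) and 3 FPKM (Ahcyl2) in either group. Values this small could hardly close the gap, so these 2 sums do not test the separation. Each added transcript was picked as the most opposed of 20551. Adding it tends to shrink the difference by that choice, so an overlap of the sums does not test the separation. The sums were chosen after the values were seen, and whether the transcripts come from these genes was not tested.

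Among genes lower in all 5 treated mice, Ifitm2, an interferon-induced membrane protein gene, had 414, 289.7, 288, 422 and 459 FPKM in AOM/DSS mice and 193, 197, 205, 202 and 186 FPKM in treated mice (log2 difference −0.90 ± 0.14 SE, adjusted P = 0.235). The 5 treated mice lay close together, at the Control level (167 to 240.1 FPKM). Pcdhgc3, a γ-protocadherin, had 17.2, 16.1, 15.3, 19.3 and 21.8 and 4.5, 11.1, 4.72, 9.91 and 10 FPKM (−1.13, adjusted P = 0.356). It is read from a cluster of genes that share exons, so fragments may be divided among them. Gsdmcl2, a gasdermin-related gene, had 17.2, 2.27, 23.7, 7.8 and 19.9 and 2.07, 1.72, 0.112, 1.6 and 0.111 FPKM (−2.66, adjusted P = 0.356), and its value lay in 1 noncoding transcript, while the other 4 Gsdmc genes tested were not called. Summed with its own most opposed assembled transcript, the Gsdmcl2 log2 difference was −1.29 and the groups overlapped. That transcript was picked for being opposed, so this overlap does not test the separation either. Cd47, Sema4c and Slc7a8 had the other smallest P values among genes called lower (−1.06, −1.04 and −1.30, each with an adjusted P of 0.356). In Cd47, which codes for a surface signal that inhibits phagocytosis, mouse 35 had 24.2 FPKM and the lowest AOM/DSS mouse 23.4.

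Eef1a1 (chromosome 9, 78478449 to 78489151), translation elongation factor 1α, had the smallest P of all genes (adjusted P = 0.00481). It had 1443, 1063, 1126, 1055 and 1071 FPKM in AOM/DSS mice and 3083, 3108, 2694, 2958 and 2994 FPKM in treated mice (log2 difference 1.37 ± 0.12 SE), and the groups did not overlap. Of the 20551 assembled transcripts that reached 1 FPKM in a mouse, 1 was the most opposed to Eef1a1 over the 20 mice. It was listed at 0 in all 5 treated mice and had a mean of 2035 FPKM in AOM/DSS mice. Control mouse 17 and PZH mice 27 and 53 were also listed at 0, so both states occurred without AOM/DSS and with or without PZH. In the 8 mice listed at 0, Eef1a1 had at least 2460 FPKM, and in all other mice at most 1592 FPKM. Eef1a1 and that transcript added together gave 2967 ± 165 FPKM (SD) in treated mice and 3187 ± 202 FPKM (SD) in AOM/DSS mice, so the order of the group means turned round. The transcript carries no gene name and was picked as the most opposed after the values were seen. That choice by itself tends to shrink the summed difference. Whether the transcript comes from Eef1a1 was not tested. Eef1a1 was the one gene called among 32 ribosomal and translation genes, whose median was −0.01.

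Several of the largest rises belonged to genes whose value jumped between a low and a high level within a group. Atf6, a sensor of endoplasmic reticulum stress, had 0.0263, 13.2, 0.0161, 0.0183 and 12.8 FPKM in AOM/DSS mice and 11.9, 13.1, 14.4, 13.1 and 12.8 FPKM in treated mice. Pitpnb, a phosphatidylinositol transfer protein gene, had 30, 0.579, 0.184, 0.45 and 0.334 and 0.532, 27.9, 32.2, 26.8 and 30 FPKM. Eps8l3, related to the actin regulator Eps8, had 71.5, 17, 97, 67.9 and 1.67 and 95.9, 153, 97.8, 90.8 and 121 FPKM. In Atf6 and Eps8l3 all treated mice were high and AOM/DSS mice stood on either level, and in Pitpnb each group had 1 mouse on the other level. The microRNA gene model Gm22133, the largest fall of all called genes (−5.47 ± 2.40 SE, adjusted P = 0.416), had 827, 934, 1015, 665 and 0.26 FPKM and 0.296, 0.263, 0.28, 1431 and 0.277 FPKM. A 10-fold or wider range among the 5 Control mice, with a highest value of at least 5 FPKM, was found in 2.52% of all genes tested, 7.81% of those called lower and 24.2% of those called higher. Other large rises were Gm43305 (3.03), Mettl7a1 (1.85), Aadac (1.79), Apol10a (1.76) and Gzf1 (1.76), and C2cd4a rose by 1.75 without mouse 35 (adjusted P = 0.0177).

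Many groups gave no call. Of 39 cell cycle genes none was called by limma and none had an unadjusted P under 0.05, with a median of 0.01. Pcna, which encodes the DNA clamp used as a proliferation marker, had 112, 75.6, 102, 116 and 113 FPKM in AOM/DSS mice and 90.5, 71.8, 112, 137 and 69.4 FPKM in treated mice (log2 difference −0.14 ± 0.20 SE, adjusted P = 0.81). Mki67 had 2.69, 4.43, 3.95, 6.16 and 10.9 and 7.24, 3.23, 23.7, 2.27 and 4.66 FPKM (0.18 ± 0.51 SE, adjusted P = 0.92), with treated mouse 15 far above the rest. Without that mouse the Mki67 log2 difference was −0.27. Of 14 goblet cell markers none was called or had an unadjusted P under 0.05, and Muc2, the main secreted mucin, differed by 0.44 ± 0.38 SE (adjusted P = 0.666). Its values were 1417, 1025, 2026, 413 and 1853 FPKM in treated mice, with mouse 35 lowest, and 938, 891, 1053, 687 and 816 FPKM in AOM/DSS mice.

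By limma, no member was called among EGF family genes (12 tested), prostaglandin genes (17), enteroendocrine markers (15), fibroblast markers (18), endothelium (15), smooth muscle (13) or skeletal muscle (4), and their medians lay between −0.04 and 0.12. An unadjusted P under 0.05 was reached by 3 of these genes that were higher and 2 that were lower. The lists of glycolysis and hypoxia genes (27 tested) and of p53 targets and cell death genes (27) gave 1 call each. So did those of tuft cells (8), enteric neurons and glia (14), and mesothelium (2). The genes called were the lactate exporter Slc16a3 (−1.86, adjusted P = 0.356), the death receptor Fas (1.11, adjusted P = 0.422), the actin regulator Avil (−1.27), the receptor Ret (−1.01) and mesothelin (Msln, −1.17). Of all genes 2.01% were called lower and 0.39% higher, so 1 call in lists of these sizes says little about them. Slc16a3 had 38.8, 19.8, 23.7, 53.3 and 39.6 FPKM in AOM/DSS mice and 4.16, 4.95, 4.99, 33 and 10.4 FPKM in treated mice, again with mouse 35 as the sole treated mouse in the AOM/DSS range.

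**Figure D4:**
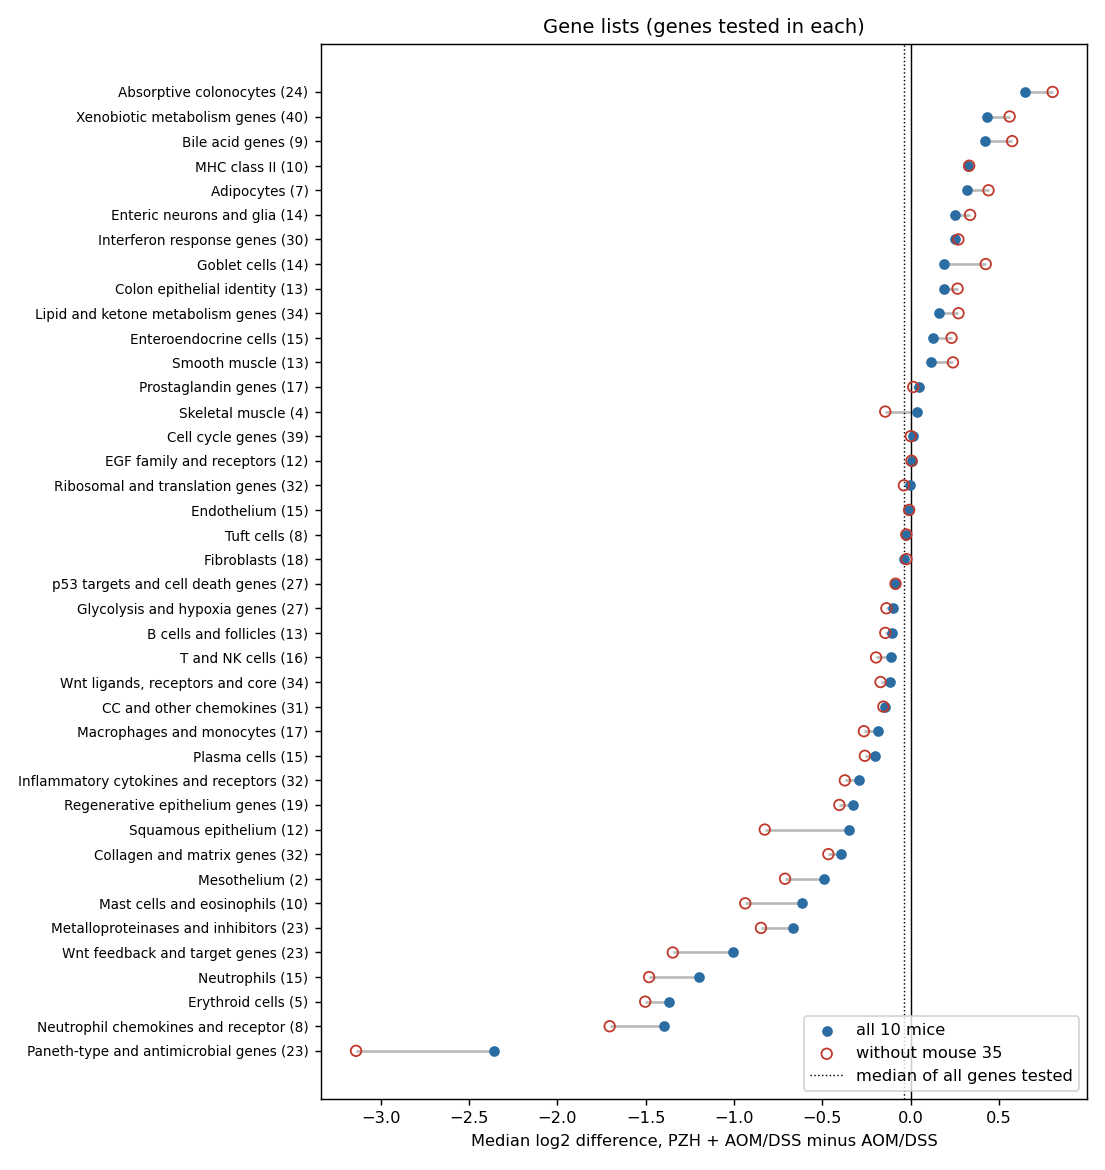
Each row is a gene list with its number of genes tested, and the points give the median log2 difference (treated minus AOM/DSS) with all 10 mice (filled) or without mouse 35 (open), with the median of all genes as a dotted line. The Paneth-type list lies lowest at −2.36 (−3.14 without mouse 35) and the absorptive colonocyte list highest at 0.65 (0.80).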

How the data were processed

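RNA-seq libraries of colon from 20 mice in 4 groups were deposited, and 10 were compared here. The authors aligned reads to mm10 with HISAT2, assembled transcripts with StringTie and deposited 1 FPKM value per transcript and mouse, with library size and transcript length already divided out. The libraries are described as rRNA-depleted in the labels and, in the methods, also as poly(A)-selected. Each file held 118434 transcripts, 96182 with an Ensembl identifier. FPKM of the 96032 found in GENCODE M21 (GRCm38) were summed into 32991 genes. The 22252 transcripts assembled by StringTie, 12 to 15% of all FPKM, carry no gene name and were left out.

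Genes at 0.5 FPKM or more in at least 5 of the 10 mice (15888) were tested on log2(FPKM + 1) with limma 3.58.1 (intensity trend, R 4.3.3), 2-sided. A gene was called at an unadjusted P under 0.05 and a fold change above 2 on that scale, the thresholds of the authors, and adjusted P is Benjamini-Hochberg over all genes. Reads per gene could not be rebuilt (40.5 to 45.2% of low values lay within 0.01 of a whole step), so no count test was the main one. Alternatives were other filters, pseudocount, scaling, variance models, voom (limma) on estimated fragments, all 20 mice in 1 model and each mouse left out. Code was tested on simulated data. Genes were named by the size of the change, the smallest P, the 4 smallest P of each list, and proteins the study stained or measured in serum, and some genes that met these rules are not reported here. The groups, gene lists and named genes were chosen with earlier results of these data known. Some genes stood in several lists, among them Mmp7, Mmp9, Cxcr2 and Msln, so the calls of different lists are not all separate. The labels number the mice and do not say whether mice shared a cage. Promoter sequences are from RefSeq (GRCm38.p6).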

Additional observations from a re-analysis of the deposited data

Results flagged for a closer look

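The highest or lowest mouse of each group was compared with the rest of its 5 mice for each of the 116 genes given with values, as its distance from the nearest mouse over the range of the group. In 56 of 232 groups this ratio was above 0.71, the value of Dixon's test that chance passes in about 1 of 20 groups of normally distributed values. The ratio was taken on FPKM without a log, so chance may pass it more often here. Mouse 35 of the PZH + AOM/DSS group was the highest mouse in 45 of the 56 groups. Among the Wnt genes, the FPKM values of mouse 35 far above its group were those of Sp5 (21.2), Nkd1 (108), Wif1 (123), Axin2 (55.7), Tnfrsf19 (14.4), Apcdd1 (46.3), Dkk2 (12.6), Rnf43 (41.3), Sox4 (93.6), Fzd10 (2.68), Wnt6 (23.7) and Wnt10a (10.6). Of Paneth-type, lipase-related and neighbouring genes they were Defa24 (1069.6), Defa20 (520.4), Mmp7 (504), Lcn2 (114), Itln1 (273), Rdh16f1 (24.8), Pnliprp2 (129) and Clps (42). Of regenerative and squamous genes they were Krt23 (77.7), Clu (247), Msln (7.05) and Krt15 (3.89). Of matrix and protease genes they were Spp1 (20.8), Mmp12 (9.12), Mmp10 (81.9), Mmp13 (51.8), Mmp14 (104), Adam8 (14.6) and Col4a1 (89.7). Of neutrophil, chemokine and myeloid genes they were S100a9 (138), Cxcl2 (17.4), Cxcr2 (3.27), Cxcl14 (52.5) and Arg1 (41.4). Of transporters and enzymes they were Cyp2b10 (2.78), Abcc2 (15.9), Gsta4 (61.4), Slc7a8 (11.6) and Slc16a3 (33). Of other genes they were Sema4c (9.35), Gm22133 (1431), Gm43305 (76.1) and Ret (11.7). These genes were mostly named because 4 treated mice were low, so they do not count as independent.

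The others were spread over mice. AOM/DSS mouse 23 was far above its group in Mmp13 (86.2 FPKM), Il6 (5.11), Eef1a1 (1443) and Pitpnb (30.03). AOM/DSS mouse 33 was high in Ahcyl2 (19.9) and Apol10a (18.3), mouse 30 in Gm43305 (17.2) and mouse 44 in Thbs2 (16.9). In the treated group, mouse 15 was high in Mki67 (23.7), mouse 13 low in Gzf1 (1.39) and mouse 2 low in Pitpnb (0.532).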

How the results depend on the processing

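No paired analysis was possible because the 2 groups share no mouse number. Of 320 genes called lower and 62 higher, the counts were 304 and 69 with median-of-ratios scaling, 318 and 56 without the filter, 294 and 46 with a filter at 2 FPKM, 320 and 60 without an intensity trend, 441 and 86 with sample quality weights and 332 and 61 with all 20 mice in 1 model. With a pseudocount of 0.1 they were 557 and 138, and with voom 605 and 154. An adjusted P under 0.05 (0 lower and 1 higher with all 10 mice, with 1305 and 557 at an unadjusted P under 0.05) was reached by 85 lower and 4 higher genes with all 20 mice, by 2 higher genes with quality weights and by 0 higher genes without the filter.

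With each mouse left out in turn, 226 to 509 genes were called lower and 46 to 105 higher, 0 to 689 lower and 1 to 119 higher genes had an adjusted P under 0.05, and 130 to 1303 lower and 96 to 435 higher genes did not overlap. The upper end of each range is without treated mouse 35, and the lower ends of the called genes are without treated mouse 13 and AOM/DSS mouse 44. The difference in genes detected at 1 FPKM ranged from −259.85 to −105.85. Members called lower ranged from 8 to 14 in the Wnt feedback list, 9 to 14 in the Paneth-type list, 3 to 9 in the regenerative list, 3 to 9 in the metalloproteinase list, 4 to 7 in the neutrophil chemokine list and 6 to 12 in the neutrophil list, and colonocyte genes called higher from 1 to 6. Without mouse 44 the regenerative list had 3 and the colonocyte list 1, without treated mouse 2 the regenerative and metalloproteinase lists had 3 each, and without treated mouse 13 the neutrophil list had 6.

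For the 116 genes given with values, 2067 alternative log2 differences were computed. Of these, 1870 kept their direction and their side of the P threshold, 186 lost a P under 0.05, 7 gained it and 4 changed sign. The Ccnd1 log2 difference was −0.12 without AOM/DSS mouse 44 (up to 0.57 without mouse 52), the Mki67 log2 difference −0.27 without treated mouse 15 (up to 0.45 without mouse 35), and the Adgre1 log2 difference −0.029 without AOM/DSS mouse 23 and −0.012 without treated mouse 13 (up to 0.073 without mouse 2). Eef1a1 summed with the opposed transcript, an alternative chosen after the data were seen, gave −0.10. Of 12 other genes summed in this way none changed sign, and the Tmem19 log2 difference was 0.18 and the Gsdmcl2 log2 difference −1.29. Each transcript added was picked as the most opposed to its gene, so a smaller difference follows in part from that choice. For some of these genes, such as Atf3 and Fn1, the transcript added averaged at most 0.711 and 0.566 FPKM in either group, too little to change a sign. The causes were not tested.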

Other observations

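Bile acid handling and enteroendocrine genes had few calls. Over the 9 bile acid genes the median log2 difference was 0.42, with 3 negative, and Abcc2 was the member that was called. The 15 enteroendocrine markers had a median of 0.12. Without mouse 35, 2 were higher and 1 lower at an adjusted P under 0.05 (against 0.761% and 4.41% of all genes). MHC class II genes (10 tested) had a median of 0.32 and 2 with a negative difference, and none was called by limma or reached an unadjusted P under 0.05.

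The number of genes within the Control range differed between treated mice. Of the 320 genes called lower, mice 2, 13, 15 and 36 lay within the range of the 5 Control mice in 155, 188, 94 and 124 genes, and mouse 35 in 49. Over the genes called higher the median SD was larger in AOM/DSS mice (0.849) than in PZH + AOM/DSS mice (0.639), the reverse of the genes called lower.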
